A study of Mus musculus with 6 samples.

Results

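Hnrnp, Srsf and other sequence-specific splicing regulators were compared between colon tumor cells that express a peptide inhibitor of Group I Paks (PID+) and tumor cells that do not (PID-). The regulators were all genes with a symbol that begins with Hnrnp, those named Srsf, Pcbp, Ptbp, Mbnl, Celf or Rbfox followed by a number, and Qk, Tra2a, Tra2b, Khdrbs1, Nova1 and Nova2. These were 56 of 21959 genes, and 48 of them had a mean FPKM over both conditions of at least 1. FPKM are fragments scaled to the length of the transcript and to the number of mapped fragments, so that levels of different genes are compared per length.

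The study measured poly A RNA in primary cells grown from colon tumors, to learn how loss of Pak activity alters transcription in cells that carry an Apc deletion. Cells of both conditions came from CDX2P-NLS-Cre mice with 1 loxP-flanked Apc allele, which is deleted by a Cre driven by the CDX2 promoter. PID+ mice also carried the PID (Pak inhibitory domain) at the Rosa26 locus, which is expressed after Cre acts, and PID- mice lacked it. The labels give 3 PID+ samples from mice 4, 7 and 26 and 3 PID- samples from mice 1, 2 and 3. The numbers of the PID- samples are not those by which the study names its PID- lines, so which lines they are is not known here. The PID- samples are called normal and untreated in the labels, although the methods describe cultures from tumors. The Cre and Apc strains were C57BL6/J, and the age of the mice that gave the cultures was not given for these samples. The authors pooled the reads of each condition, and the methods call the 3 sets of reads replicated sequencing runs. There was thus 1 FPKM per gene and condition with no replicate spread, and no test between conditions was possible. The table lists no PID transgene, and the labels could not be checked on its level.

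Splicing regulators bind short sequences in pre-mRNA and promote or repress the use of nearby splice sites. SR proteins mostly bind exonic enhancers and promote inclusion of an exon, and hnRNP proteins often act against them from silencers in exons and introns. Epithelial and mesenchymal cells are known to splice many transcripts differently, including that of the cell surface receptor CD44, and members of the Esrp, Rbfox, Qk, Ptbp and hnRNP groups take part in this difference. The values here are sums over all transcripts of a gene, so they give the amount of each regulator's mRNA and do not measure the splicing of any exon.

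A regulator was counted as higher or lower when (FPKM + 1) differed at least 1.5-fold between the conditions. Of the 48 regulators, 4 were higher in PID+ cells (Celf2, Hnrnpa2b1, Mbnl2 and Mbnl3) and 4 were lower (Pcbp3, Pcbp4, Ptbp3 and Qk). Each direction thus held 8.33% of the regulators, against 14.2% of the 11480 genes that passed the same filter that were higher and 15.3% that were lower. The other 40 regulators stayed within 1.5-fold. Pcbp3 passed the filter only through PID- cells, so its direction was set by the filter. With a mean FPKM of at least 5, 4 regulators were higher and 3 lower. The median log2 change of the 48 was 0.034 (interquartile range -0.21 to 0.29), beside -0.0069 (-0.37 to 0.34) over all genes. A higher FPKM in PID+ cells, by any amount, was found for 28 regulators as deposited, or 58.3%, against 49.4% of all genes, and for 4 with Gapdh set equal, or 8.33%, against 15.0%.

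The regulators were abundant. Their median FPKM, averaged over the conditions, was 73.8, against 15.6 for the 11480 genes. Summed over the 56 genes, the level was 6499.9 FPKM in PID+ and 5982 FPKM in PID- cells, which was 1.11% and 1.10% of the total FPKM. Among the 34 regulators with a mean FPKM of at least 50, a filter chosen after seeing the data, Hnrnpa2b1 and Ptbp3 (5.88%) passed 1.5-fold, while 21.7% of the 1892 genes with such a level did so in either direction.

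CuffDiff's deposited intervals of the conditions overlapped for each of the 48 regulators, while they were apart for 1.38% of all genes. The intervals reached a median of 67.8% of the FPKM to either side in PID+ cells and 67.1% in PID- cells, which was narrower than over all genes (87.3% and 85.7%). They come from CuffDiff's own error model on pooled reads and do not hold the spread between mice. Overlap of the intervals is not a test, and it does not show that a difference lies within the error.

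The scaling of the table bears on many of the directions given here. With the upper quartile of FPKM set equal, or with the median of all genes subtracted, the same 4 regulators were higher and the same 4 lower. With the total FPKM set equal in both conditions, the log2 change of the median gene shifted to -0.10, and 2 regulators were higher and 6 lower (against 11.5% and 18.8% of all genes), so that 2 of 8 calls were higher in place of 4 of 8. With Gapdh set equal (2570.3 in PID+ and 1666 in PID- cells as deposited), the median gene shifted to -0.57, no regulator passed 1.5-fold upward, and 23 passed it downward. Under that scaling 4.70% of all genes were higher and 48.5% lower. The 4 lower regulators were lower by at least 1.5-fold with each scaling, which is no check on them. The total and Gapdh scalings move changes downward, and the upper quartile scaling moves them upward by only 0.026 on the log2 scale.

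**Figure D1:**
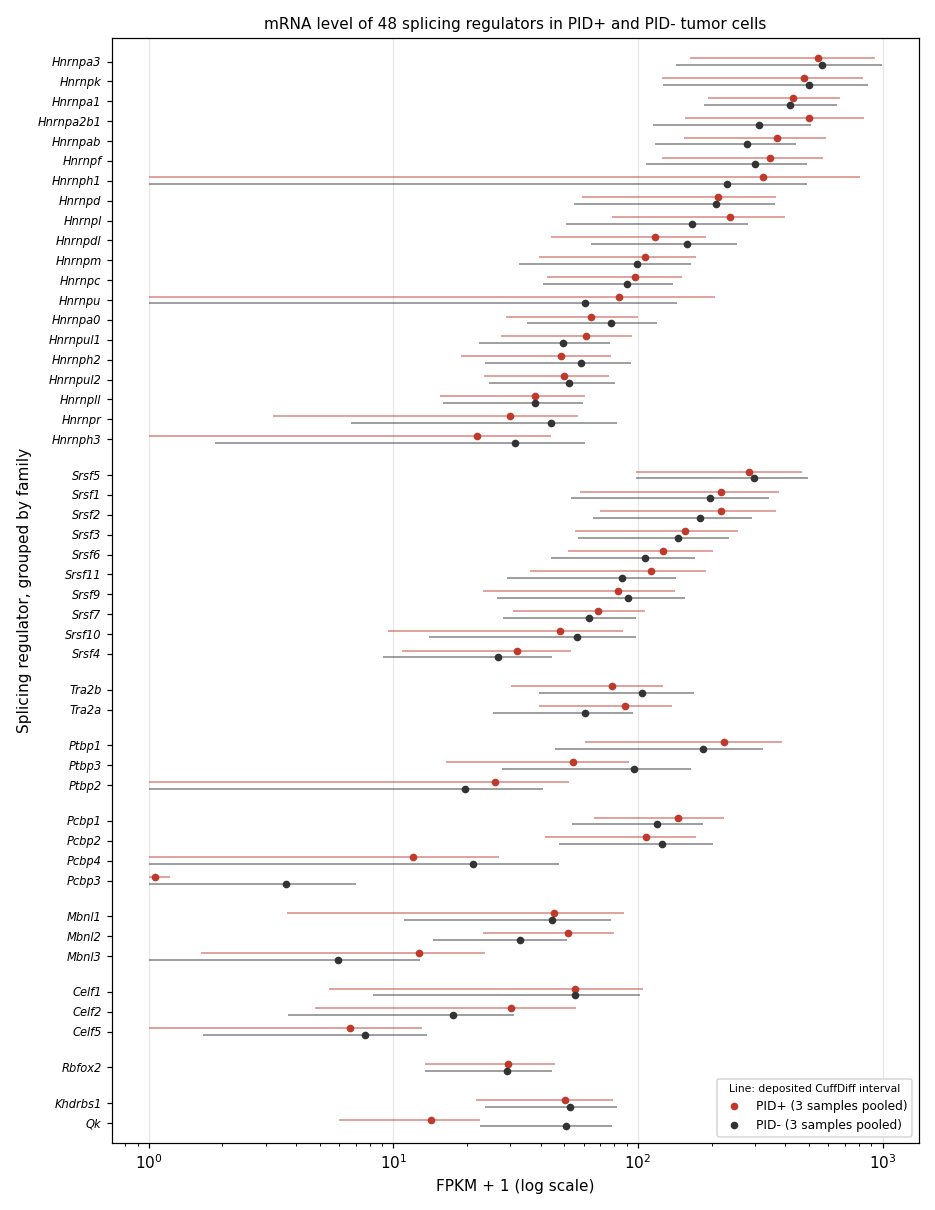
Level of the 48 regulators with a mean FPKM of at least 1, as FPKM + 1 on a log scale, in PID+ cells (red) and PID- cells (black), each a pooled value of 3 samples, with lines for the deposited CuffDiff intervals. Genes are grouped by family and ordered by mean level, and the intervals of Qk, 5.01 to 21.6 in PID+ cells and 21.5 to 77.6 in PID- cells, barely overlap.

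The Hnrnp genes were the most abundant family, with a summed level of 4145 FPKM in PID+ and 3727 FPKM in PID- cells, and all 20 passed the filter. They encode RNA-binding proteins that coat nascent transcripts. Only Hnrnpa2b1, or 1 of 20, passed 1.5-fold as deposited (against 14.2% of all genes higher and 15.3% lower), and with Gapdh set equal it did not, while 11 of the 20 passed 1.5-fold downward, near the share of all genes that did so (48.5%). The log2 changes of the 20 ranged from -0.56 to 0.67, with a median of 0.03 that became -0.59 with Gapdh set equal.

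The 5 regulators with the highest mean FPKM were all Hnrnp genes. Hnrnpa3, an A/B-type hnRNP, was at 546 FPKM in PID+ and 567 FPKM in PID- cells. Hnrnpk, which binds cytosine-rich RNA through KH domains, had 476 and 499. Hnrnpa1, which promotes skipping of exons and counters Srsf1, had 429 and 419. Their intervals overlapped almost wholly, and the order among these 3 was the same in both conditions. Reads of Hnrnpa1 are uncertain, since the reference annotation names 2 processed pseudogenes after it. Pseudogenes under other names were not searched for, so reads of other regulators may be uncertain too.

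Hnrnpa2b1 (ENSMUSG00000004980.13, chr6:51460932-51469894 in GRCm38, minus strand) encodes an hnRNP that also takes part in RNA transport and in the reading of methylated adenosines. It was at 498 FPKM (interval 155 to 841) in PID+ and 312 FPKM (115 to 509) in PID- cells, a ratio of 1.60 and a log2 change of 0.67. It stood behind Hnrnpa1 in PID- cells and ahead of it in PID+ cells, with a ratio of Hnrnpa2b1 to Hnrnpa1 of 0.744 and 1.16. Such a ratio of genes within a condition does not depend on the scaling of the table. The gene lies on chromosome 6, where the median gene had a log2 change of 0.34, and its own change was 0.33 once that was subtracted. Hnrnpab, the fifth by level, had 369 and 279 (log2 change 0.40, and -0.22 with Gapdh set equal).

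Several other Hnrnp genes lay just inside 1.5-fold. Hnrnpl, which binds CA repeats, had 237 in PID+ and 165 in PID- cells (log2 change 0.52, and -0.10 with Gapdh set equal). Hnrnph1, which binds runs of guanines, had 324 and 229 (0.50), with intervals that reached 0 in both conditions. Its relative Hnrnph3 had 21.0 and 30.3 (-0.51), so that the 2 related genes differed in sign as deposited, although both were below 0 with Gapdh set equal. Hnrnpr had 29.1 and 43.2 (-0.56). With the total FPKM set equal, Hnrnph3 and Hnrnpr joined the genes at least 1.5-fold lower.

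Hnrnpm and Pcbp1 were examined as proteins in the study, since per the paper Hnrnpm was reported, and Pcbp1 proposed, to regulate CD44 splicing. Hnrnpm, which promotes skipping of the variable exons of CD44, was at 105 FPKM (38.4 to 172) in PID+ and 97.7 FPKM (31.7 to 164) in PID- cells, or a log2 change of 0.11 that became -0.51 with Gapdh set equal. It overlaps March2 on the same strand, and reads from the shared stretch cannot be assigned with certainty. Pcbp1, which binds poly(C) stretches and represses inclusion of CD44 variable exons, had 145 (64.9 to 224) and 118 (52.7 to 184), a log2 change of 0.29 that became -0.33 with Gapdh set equal and -0.06 after subtraction of the median of chromosome 6. Both mRNAs were thus within 1.5-fold in these data. On immunoblots, which measure protein and not mRNA, the paper saw neither protein change between PID+ and PID- cells. It proposes Esrp1, and neither of these 2, as the main factor in the CD44 switch.

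The Srsf genes encode the SR proteins, which carry a domain of alternating arginines and serines. Of 11 Srsf genes 10 passed the filter, and none passed 1.5-fold as deposited (against 14.2% of all genes higher and 15.3% lower), while Srsf5, Srsf9 and Srsf10, or 3 of 10, were lower by 1.5-fold with Gapdh set equal (against 48.5%). Their log2 changes ranged from -0.22 to 0.39 with a median of 0.13, or -0.49 with Gapdh set equal. Srsf5 had the highest level, 283 in PID+ and 296 in PID- cells. Srsf1, the SR protein that has been studied most as an oncogene, had 217 and 197. At the ends of the range were Srsf11 with 112 and 85.1, and Srsf10, a repressor when dephosphorylated, with 47.2 and 55.3. Srsf12 was under the filter, with an FPKM of 0.021 and 0.015.

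Tra2a and Tra2b encode SR-like proteins that bind GAA-rich exonic enhancers and can act in place of each other. Tra2a was at 87.5 FPKM (38.3 to 137) in PID+ and 59.6 FPKM (24.6 to 94.5) in PID- cells. Tra2b had 77.4 (29.2 to 126) and 103 (38.2 to 168). Neither gene passed 1.5-fold as deposited, but the more abundant of the pair was Tra2b in PID- cells and Tra2a in PID+ cells, with a ratio of Tra2a to Tra2b of 0.578 and 1.13. This ratio of FPKM changed by 0.97 on the log2 scale. Tra2a lies on chromosome 6 (median log2 change 0.34) and Tra2b on chromosome 16 (-0.50). With these medians subtracted from the log2 changes of FPKM + 1, Tra2a and Tra2b differed by 0.11. The part of these chromosome-wide differences in the result was not tested.

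Ptbp proteins bind pyrimidine-rich tracts and mostly repress exons. Ptbp1, the common form outside the nervous system, was at 223 FPKM in PID+ and 184 FPKM in PID- cells. Ptbp2, its neural relative, had 24.9 and 18.6. Both were within 1.5-fold and were below 0 on the log2 scale with Gapdh set equal (-0.34 and -0.19).

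Ptbp3 (ENSMUSG00000028382.12, chr4:59471868-59549364, minus strand) was lower in PID+ cells, with an FPKM of 53.2 (15.4 to 90.9) against 95.1 (26.8 to 163) and a log2 change of -0.83. PID+ cells had 17.7% of the summed Ptbp FPKM in Ptbp3 and PID- cells had 32.0%, and the ratio of Ptbp3 to Ptbp1 was 0.238 and 0.518. The median gene of chromosome 4 had a log2 change of -0.31. After its subtraction Ptbp3 was at -0.51 and no longer past 1.5-fold.

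The Pcbp genes encode KH domain proteins that bind poly(C) and act in splicing, stability and translation of mRNA. The 2 abundant ones, Pcbp1 (given above) and Pcbp2 with 107 in PID+ and 124 in PID- cells, were within 1.5-fold as deposited, and Pcbp2 was at -0.84 on the log2 scale with Gapdh set equal. Their scarcer relatives Pcbp4 and Pcbp3 had a lower FPKM in PID+ cells, but the direction of Pcbp3 was set by the filter. Pcbp4 (ENSMUSG00000023495.9, chr9:106453291-106464012, plus strand), which is known as a target of p53, had an FPKM of 11.01 (0 to 25.9) against 20.2 (0 to 46.6), a log2 change of -0.82. It overlaps Gpr62 on the other strand, and the library kit does not keep the strand, so reads of the 2 genes are not separated where they overlap. The same holds for Hnrnpab, Hnrnpf, Hnrnph3, Hnrnpk, Hnrnpu, Pcbp2, Ptbp1 and Srsf2, each of which overlaps a gene on the other strand.

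Pcbp3 (ENSMUSG00000001120.12, chr10:76761857-76961887, minus strand) was close to the filter, with a mean FPKM of 1.34. It had 0.056 in PID+ and 2.63 (0 to 6.06) in PID- cells, and the log2 change was -1.78, or -4.13 with a pseudocount of 0.1. Its value in PID+ cells stood for about 1.59 to 9.01 reads, for the shortest and the longest annotated transcript, against 103 to 584 in PID- cells. It passed the filter only through PID- cells, where it was high, so its direction was set by the filter.

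Mbnl proteins bind GC steps flanked by pyrimidines and are known for their capture by CUG repeats in myotonic dystrophy. All 3 passed the filter. Mbnl1 was at 44.5 FPKM in PID+ and 43.4 FPKM in PID- cells. Mbnl2 (ENSMUSG00000022139.13, chr14:120275669-120431697, plus strand) had 50.6 (22.4 to 78.9) and 32.0 (13.5 to 50.4), a log2 change of 0.65. Mbnl3 (ENSMUSG00000036109.14, chrX:51117269-51206532, minus strand), which is known to hold back muscle differentiation, had 11.7 (0.634 to 22.7) and 4.91 (0 to 11.9), a log2 change of 1.10.

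Mbnl1 was the leading member in PID- cells and Mbnl2 in PID+ cells, with a ratio of Mbnl2 to Mbnl1 of 0.736 and 1.14. The ratio of Mbnl3 to Mbnl1 was 0.113 and 0.263. Chromosomes differed here in both directions. The median of chromosome 14 was 0.25, and Mbnl2 was at 0.39 after its subtraction, within 1.5-fold. The median of the X chromosome was -0.45, and Mbnl3 was at 1.56 after its subtraction. With Gapdh set equal, Mbnl2 was at 0.04 and Mbnl3 at 0.54, both within 1.5-fold. With the total FPKM set equal, Mbnl2 was at 0.55, also within 1.5-fold, and Mbnl3 was at 1.01.

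Celf proteins bind GU-rich RNA and often oppose Mbnl proteins on the same exons. Of 6 genes 3 passed the filter. Celf1, the common form, was at 54.1 FPKM in PID+ and 54.3 FPKM in PID- cells, and Celf5 had 5.65 and 6.67. Celf2 (ENSMUSG00000002107.15, chr2:6539694-7509563, minus strand) had 29.3 (3.80 to 54.9) and 16.5 (2.704 to 30.3), a log2 change of 0.80 that was 0.71 after subtraction of the chromosome median and 0.20 with Gapdh set equal. The ratio of Celf2 to Celf1 was 0.542 in PID+ and 0.303 in PID- cells. Celf3 (0.151 and 0.225), Celf4 (1.12 and 0.498) and Celf6 (0.054 and 0) were under the filter.

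Qk (ENSMUSG00000062078.11, chr17:10202601-10319854, minus strand) showed the lowest log2 change of the 48 regulators with the pseudocount of 1. Its protein, Quaking, is a KH domain protein of the STAR family that acts in splicing of muscle and myelin transcripts and is known to promote circular RNAs when epithelial cells become mesenchymal. It was at 13.3 FPKM (5.01 to 21.6) in PID+ and 49.6 FPKM (21.5 to 77.6) in PID- cells, 3.72 times as high in PID- cells. The log2 change was -1.82, and it was -1.76 after subtraction of the median of chromosome 17 and -2.39 with Gapdh set equal. By FPKM, Qk stood at rank 1934 of all genes in PID- cells and at rank 6238 in PID+ cells. The 2 intervals met by a narrow margin.

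Khdrbs1 and Rbfox2 were set beside Qk after their values were seen, and with Gapdh set equal they were at -0.68 and -0.57 on the log2 scale. Khdrbs1 (Sam68), a STAR protein that promotes inclusion of a CD44 variable exon downstream of Erk, was at 49.3 FPKM in PID+ and 51.8 FPKM in PID- cells. Qk and Khdrbs1 were thus about as abundant in PID- cells (ratio 0.957), and the ratio was 0.270 in PID+ cells. Rbfox2, which binds UGCAUG and acts in epithelial and mesenchymal splicing, had 28.5 and 28.0. The ratio of Qk to Rbfox2 was 1.77 in PID- cells and 0.467 in PID+ cells, so Qk was the more abundant per length in PID- cells and Rbfox2 in PID+ cells.

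Rbfox1, Rbfox3, Nova1 and Nova2, which are known from neurons, were scarce in both conditions. Rbfox1 was at 0.0038 FPKM in PID+ and 0.025 FPKM in PID- cells, and Rbfox3 was listed at 0 in both. Nova1 had 0.208 and 0.0016 and Nova2 had 0.479 and 0.308. With Celf3, Celf4, Celf6 and Srsf12 these were the 8 regulators under the filter, for which no fold is given.

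**Figure D2:**
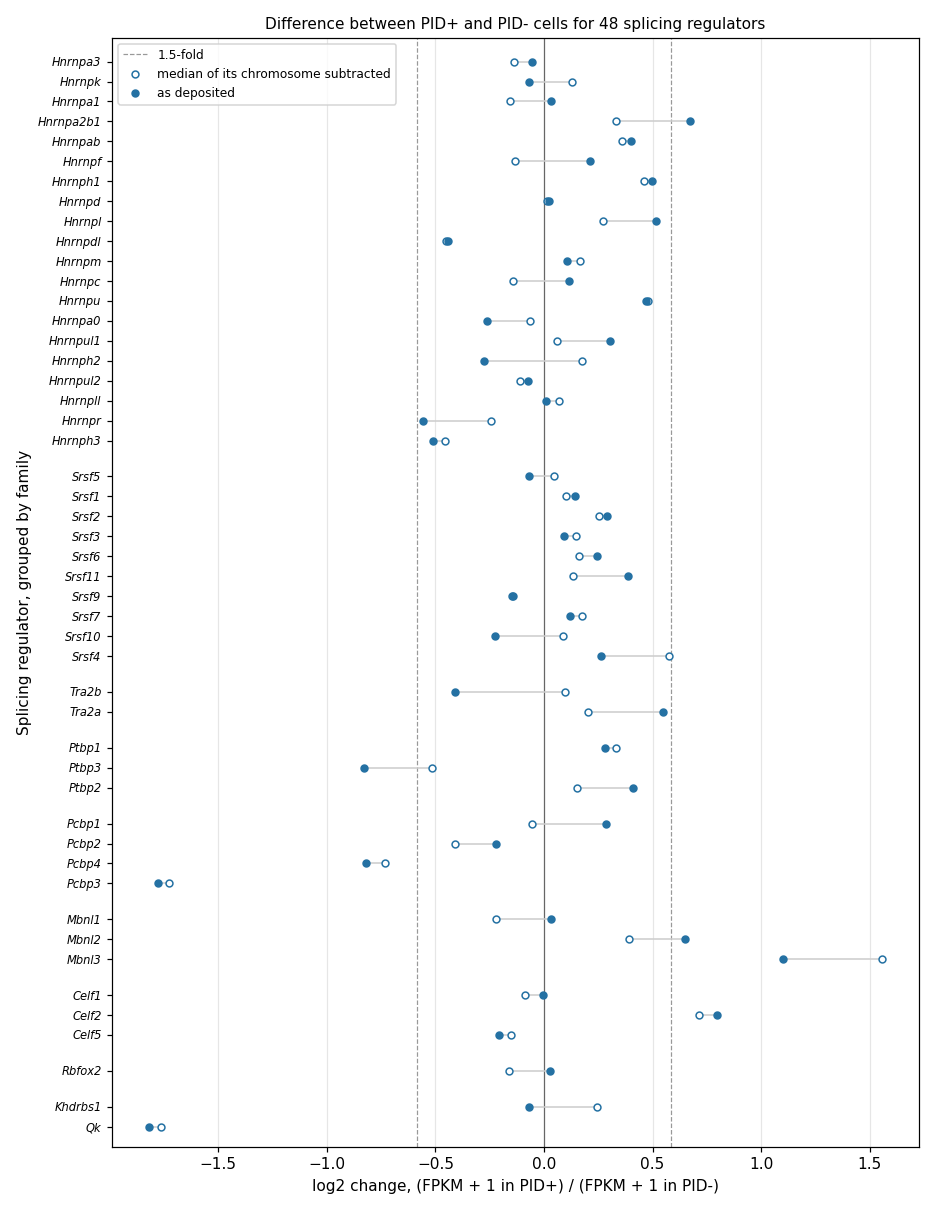
Difference between PID+ and PID- cells for each of the 48 regulators, as the log2 ratio of FPKM + 1, as deposited (filled) and after the median of the gene's chromosome was subtracted (open), with dashed lines at 1.5-fold. As deposited 4 genes lie beyond each line, and after subtraction Celf2 and Mbnl3 remain above and Pcbp3, Pcbp4 and Qk below; with Gapdh set equal none of the filled points would lie above the upper line.

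Chromosome-wide differences were thus of the size of many of the changes above. The median log2 change of a chromosome's genes ranged among the regulators' chromosomes from -0.50 on chromosome 16 to 0.34 on chromosome 6. Hnrnpa2b1, Hnrnpf, Pcbp1 and Tra2a lie on chromosome 6, all with a higher FPKM in PID+ cells as deposited, and with Gapdh set equal only Hnrnpa2b1 was above 0. On chromosome 4 lie Hnrnpr, Khdrbs1, Ptbp3, Srsf10 and Srsf4, of which Srsf4 alone had a higher FPKM in PID+ cells (31.1 and 25.8), and it too was below 0 with Gapdh set equal. After subtraction 5 of the 8 regulators stayed past 1.5-fold, Celf2 and Mbnl3 upward (2 of 48, against 13.0% of all genes) and Pcbp3, Pcbp4 and Qk downward (3 of 48, against 13.6%). The direction of Pcbp3 was set by the filter.

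The core of the spliceosome, on which these regulators act, was given by a list of 27 genes of the small nuclear ribonucleoproteins and of splice site recognition. All 27 passed the filter. As deposited 4 were higher by 1.5-fold (14.8%, against 14.2% of all genes) and none was lower (against 15.3%). With Gapdh set equal none was higher and 5 were lower (against 4.70% and 48.5% of all genes). A higher FPKM in PID+ cells was found for 24 as deposited (88.9%, against 49.4% of all genes) and for 4 with Gapdh set equal (14.8%, against 15.0%). The median log2 change was 0.35, which was 0.26 after subtraction of chromosome medians and -0.26 with Gapdh set equal. The 4 were Snrpg (157 in PID+ and 91.6 in PID- cells) and Snrpd2 (140 and 85.1), which encode Sm proteins, the U5 component Eftud2 (73.9 and 46.4) and the U2 component Sf3a1 (34.1 and 21.9). With Gapdh set equal all 4 were within 1.5-fold, and after subtraction of chromosome medians only Eftud2 was past it. Snrpe was the most abundant, with 247 and 184.

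SR proteins are phosphorylated by Srpk and Clk kinases and carried into the nucleus by transportins. Of 11 such genes 10 passed the filter, and none was higher, against 14.2% of all genes. Dyrk1a, a kinase of splicing factors, was lower (10.1 and 17.8), which is 1 of 10 against 15.3% of all genes. It lies on chromosome 16, and its log2 change of -0.76 became -0.25 after subtraction of that chromosome's median, within 1.5-fold. The median log2 change was 0.03, or -0.58 with Gapdh set equal, where none was higher and 5 were lower (against 4.70% and 48.5% of all genes), and Clk1 was the most abundant with 84.6 and 80.3. Many SR and hnRNP genes limit their own mRNA through exons that lead to nonsense-mediated decay. Of 8 decay factors Smg5 was higher (46.0 and 29.5, log2 change 0.62, or 0.01 with Gapdh set equal), Upf3a was lower (17.2 and 26.9, -0.62), each 12.5% of the list against 14.2% and 15.3% of all genes, and the median was 0.02, or -0.56 with Gapdh set equal, where none was higher and 4 were lower (against 4.70% and 48.5%). After subtraction of chromosome medians both were within 1.5-fold, at 0.37 and -0.49.

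Other sequence-specific regulators were given by a list of 29 genes, of which 26 passed the filter. Among them 3 were higher (11.5%, against 14.2% of all genes) and 2 lower (7.69%, against 15.3%), and the median log2 change was -0.04, or -0.64 with Gapdh set equal, where 2 were higher and 15 lower (against 4.70% and 48.5%). After subtraction of chromosome medians 4 were higher, the same 3 and Tardbp, and 2 lower (against 13.0% and 13.6%). The 3 higher as deposited were Esrp1 (36.6 in PID+ and 15.0 in PID- cells, log2 change 1.23) and Esrp2 (32.9 and 10.9, 1.51), which promote the epithelial pattern of splicing, and Rbm47 (29.6 and 16.6, 0.80), which is also expressed in epithelia and was at 0.20, within 1.5-fold, with Gapdh set equal. The intervals of Esrp1 (14.0 to 59.3 and 4.79 to 25.2) overlapped, and those of Esrp2 (0 to 80.3 and 0 to 35.0) reached 0 in both conditions. The paper could not detect Esrp1 protein in PID- cells, while its mRNA was at 15.0 FPKM there. Khdrbs3, a STAR protein related to Khdrbs1, had 15.6 and 25.6, and the neural regulator Srrm4 had 0.624 and 1.66, which passed the filter only through PID- cells.

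Markers of cell types were read beside these values. Of 8 epithelial genes 7 passed the filter, 5 were higher in PID+ cells (71.4%, against 14.2% of all genes) and Cdx2 was lower (14.3%, against 15.3%), and with Gapdh set equal 3 were higher (against 4.70% of all genes) and Cdx2 was lower. The summed level was 8925 FPKM in PID+ and 4891 FPKM in PID- cells, a ratio of 1.82 that is 1.18 with Gapdh set equal, with Krt19 the most abundant as an average of both. Vil1, a gene of differentiated enterocytes, was near 0 in both conditions (0.175 and 0.061), and the intestinal factor Cdx2 was at 0.542 in PID+ and 8.04 in PID- cells. Of 7 mesenchymal genes 5 passed the filter and all 5 were lower in PID+ cells (against 15.3% of all genes, or 48.5% with Gapdh set equal, where all 5 were lower too), with a summed FPKM of 22.1 and 1031, of which Vim made up 19.1 and 997, and Dcn was listed at 0 in PID+ cells. Col1a2 (0.065 and 11.9), Col3a1 (0.339 and 6.35) and Dcn (2.39 in PID- cells) passed the filter only through PID- cells, as did Cdx2, so their direction was set by the filter, and of the mesenchymal genes only Vim and Col1a1 were above 1 in both conditions. These lists moved between the same conditions as Qk and the other 7 regulators past 1.5-fold, and their part in the result was not tested. In bulk RNA, fewer cells of a type and less RNA per cell cannot be told apart.

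The summed FPKM of 5 leukocyte genes was 21.8 in PID+ and 16.9 in PID- cells and was nearly all Cd68 (log2 change 0.35, or -0.24 with Gapdh set equal), while Cd3e was listed at 0 and Ptprc was at 0.026 and 0.0081. The sums were 3.66 and 1.12 for 4 endothelial genes, mostly Kdr, 1.05 and 2.32 for 6 neuronal genes, mostly Tubb3 in PID- cells, and 0.350 and 1.14 for 4 muscle genes, mostly Acta1. Kdr (3.33 and 1.01) was past 1.5-fold higher, with a log2 change of 1.11 that was 0.65 with Gapdh set equal and 1.10 after subtraction of the chromosome median, and the other 3 endothelial genes were below 1 in both conditions. Tubb3 (0.296 and 2.15) was lower and passed the filter only through PID- cells.

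The miR-200 family, which the study examined in these cells, holds back mesenchymal transcripts, and Qk is one of its known targets. Their levels were not analysed here. The mature sequences from RefSeq (GRCm38.p6) are shown because the seed, bases 2 to 8 in capitals, sets which mRNA sequences can pair with them, and the 5 members fall into 2 seed groups.
mmu-miR-200b-3p: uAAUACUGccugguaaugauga
mmu-miR-200c-3p: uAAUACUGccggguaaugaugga
mmu-miR-429-3p: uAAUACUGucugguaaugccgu
mmu-miR-200a-3p: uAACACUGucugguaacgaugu
mmu-miR-141-3p: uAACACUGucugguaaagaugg

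The complements of these seeds, CAGTATT for the miR-200b group and CAGTGTT for the miR-200a group, were searched on the transcript strand of the longest annotated 3′ UTR of each gene, a search chosen after the values were seen. CAGTATT was present in 15 of the 48 regulators (31.2%), against 15.7% of 11286 genes with a 3′ UTR. CAGTGTT was present in 14 (29.2%), against 21.1%. The regulators' 3′ UTRs were longer, with a median of 1526.5 bases against 1175, and those with CAGTATT had a median of 4149 bases against 1308 for those without it. The median log2 change was -0.0048 for the 15 regulators with CAGTATT and 0.12 for the 33 without it, beside -0.048 for all genes with it and 6.0e-05 for those without it. For CAGTGTT it was -0.038 for the 14 regulators with it and 0.12 for the 34 without it. Beside these, all genes were at -0.050 with CAGTGTT and 0.0035 without it. Regulators with CAGTGTT had a median 3′ UTR of 3247 bases against 1365 for those without it.

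Among the 8 regulators past 1.5-fold, matches were found in Qk, Ptbp3 and Mbnl3, and the letters were not in the 3′ UTRs of Celf2, Hnrnpa2b1, Mbnl2, Pcbp3 and Pcbp4. Qk held 3 matches of each kind in a 3′ UTR of 7014 bases. The highest number, 8, was in Hnrnpr, whose 3′ UTR has 19419 bases. The matches of Qk are shown because it had the lowest log2 change, and those of Ptbp3 and Mbnl3 because they were the other regulators past 1.5-fold with a match and differed in opposite directions. Capitals mark the match, all lie in the 3′ UTR on the minus strand of GRCm38, and the sequences are written 5′ to 3′ along the mRNA.
Qk chr17:10208157-10208179: accgtcttCAGTGTTagcccaaa
Qk chr17:10207843-10207865: ccgcatcaCAGTGTTcagtgact
Qk chr17:10207329-10207351: aacagtacCAGTATTtgatccag
Qk chr17:10207170-10207192: ttagttgaCAGTGTTttgagtca
Qk chr17:10207109-10207131: ttggttctCAGTATTatcactct
Qk chr17:10207037-10207059: tttcctgaCAGTATTatgtaatt
Ptbp3 chr4:59474220-59474242: ttagcatgCAGTATTcagtatct
Ptbp3 chr4:59473894-59473916: ctttgtagCAGTGTTtgcactga
Mbnl3 chrX:51117791-51117813: tttaaataCAGTGTTtacttttg

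A match describes these letters and does not show that a miRNA acts there. Of the 3 regulators past 1.5-fold with a match, Qk and Ptbp3 were lower in PID+ cells and Mbnl3 was higher. The part of miRNAs in these values was not tested.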

How the data were processed

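Libraries were made from poly A RNA with a kit that does not keep the strand. Per the methods, the authors removed adapters with CutAdapt, aligned reads to GRCm38.p3 with TopHat and Bowtie2 with an annotation of protein coding genes, joined the reads of a condition in 1 alignment, and deposited the gene FPKM of CuffDiff with its interval bounds. The annotation release was not given in the sources used here. Rows called treated were taken as PID+.

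From 21966 genes, 7 with a status other than OK were left out, and symbols matched 21734. Changes are log2((FPKM PID+ + 1)/(FPKM PID- + 1)) for genes whose mean FPKM was at least 1, which understates changes of scarce genes. Chromosome medians used genes whose mean FPKM was at least 5. Positions and 3′ UTRs came from Gencode M21 (GRCm38). The depth of the libraries is unknown. Steps in the FPKM of genes with 1 transcript (91.4% of 678 and 91.2% of 657 values within 0.1 of a whole read, with 190 bases taken off the transcript length) gave a ratio of 1.39 between the values of a read in PID+ and PID- cells, and the approximate reads of Pcbp3.

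Named genes were regulators past 1.5-fold, the 5 highest by mean FPKM, Hnrnpm, Pcbp1, those under the filter, and in the pathway lists those past 1.5-fold and the most abundant; others were named after their values were seen, and 1 gene that the rule names is not reported here. The members and lists were chosen with earlier results of these data known. The alternatives tried were another pseudocount (0.1), scaling to equal total FPKM, upper quartile or Gapdh, the median of all genes or of the chromosome subtracted, other filters and folds, and intervals that do not overlap. Calculations were tested on simulated data. Python 3.11.15, numpy 2.4.6, pandas 2.3.3 and matplotlib 3.10.9 were used.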

Additional observations from a re-analysis of the deposited data

How the results depend on the processing

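The count of 4 regulators higher in PID+ cells was 2 with equal total FPKM, 2 after subtraction of chromosome medians, 0 with equal Gapdh, 1 at 2-fold, 0 at 3-fold, 0 by intervals that do not overlap, and 1 with a mean FPKM of at least 50, a filter chosen after seeing the data. The count of 4 lower was 23 with equal Gapdh, 2 at 2-fold and at 3-fold, 0 by intervals, and 1 with that filter. It was 3 with a mean FPKM of at least 5, which leaves out Pcbp3, whose direction was set by the filter. The median log2 change of 0.034 was -0.068 with equal total FPKM and -0.57 with equal Gapdh. The change of Pcbp3 was -4.13 with a pseudocount of 0.1. With equal Gapdh, 24 of the 28 regulators above 0 as deposited were below 0. Why the conditions differ in total FPKM and in Gapdh was not tested.

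Each condition had 1 pooled FPKM per gene, so the spread between mice is unknown, replicates could not be left out, and the differences have no replicate check. The deposited intervals cover CuffDiff's error model only. Pcbp3 rests on few reads in PID+ cells. Gene-level values do not show which transcripts of a regulator differ.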
